A study of Mus musculus with 2 samples.

Results

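Actins, tropomyosins and the small proteins that bind actin filaments were followed in NIH3T3 cells, a mouse embryonic fibroblast line, through the distribution of their mRNAs between polysomes and lighter gradient fractions. The group held 10 genes of the 18181 coding gene names on the array, namely Actb, Actg1, Acta2, Tagln, Tpm1, Tpm2, Tpm3, Tpm4, Myl9 and Cnn2. They were chosen by the gene name printed on the array, from the non-control spots of both arrays. These genes were read by 22 probes of 60 bases in 40 spots. Of these probes, 20 passed the filter on signal and lay well above background in both channels of both arrays, every gene kept at least 1 probe, and no spot was saturated.

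Cultures on 4 plates with 10% serum were either control cells, for which the labels name no agent, or cells given 10 µM thapsigargin for 3 h (stress). Thapsigargin blocks the calcium pump of the endoplasmic reticulum (ER) and so causes ER stress. Before lysis all cultures received cycloheximide, which holds ribosomes on mRNA, and lysates were then separated on gradients of 10 to 40% sucrose. Polysomal RNA (P) was labelled with Cy3 and RNA of the free and monosome fractions (FM) with Cy5, and the RNA of 3 preparations was pooled on 1 dual-colour array per condition.

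Actin monomers assemble into filaments, and in fibroblasts these filaments are bundled with nonmuscle myosin into stress fibres. Tropomyosins lie along the filament and govern which other proteins reach it, while calponins and transgelin bind its side. Many of these genes are targets of serum response factor (Srf), which binds a promoter element called the CArG box and is activated by its Mkl cofactors when free actin monomers run low. Phosphorylation of the initiation factor eIF2α under ER stress lowers initiation on most mRNAs.

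The log2 ratio of the P to the FM signal (log2 P/FM) describes how far an mRNA lay in polysomes, and the mean of both log2 signals (A) is a measure of its total RNA. Changes are stress minus control. With 1 array per condition there was no spread between cultures and no test could be made. The error given is the SD over the probes of a gene or over the spots of a probe, so a change is called here by its size alone. Over all genes with several probes, the median SD was 0.32 for log2 P/FM in control cells, 0.30 under stress, 0.36 for its change and 0.19 for the change in A. These are spreads within a gene and not errors of a difference between genes. The dyes were not swapped, so the absolute log2 P/FM carries any dye effect. Since whole cultures were lysed, fewer cells with an mRNA and less of it per cell cannot be told apart.

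Both arrays lay on 1 slide and were read in 1 scan. Mean signals over the spots were 635 (P) and 948 (FM) in control cells and 463 and 1397 under stress, in the arbitrary units of the scanner. All 8 fibroblast markers checked were detected. Of 8 muscle markers (with Myh11, Des and Myocd), 4 epithelial and 3 endothelial ones, none passed the filter, and of 4 blood markers Cd68 and Lyz2 did while Ptprc and Hbb-b1 did not. The part of such cells in the values was not tested.

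The 10 mRNAs lay mostly in polysomes in control cells and moved toward the lighter fractions under stress. In control cells log2 P/FM was above 0 for all 10, against 61.8% of the 10276 genes that passed the filter. The median was 1.47 against 0.31 over all genes. The level also went with signal. All-gene medians were 0.39 at a mean A of 7 to 9 and 0.83 at 9 to 11. They were 1.05 at 11 to 13 and 0.29 at 13 to 18. The 10 genes all lay within these ranges. Tpm4 was not above 0 with loess (−0.59), with the software's processed signals (−0.093) or after centring each array (−0.067). Under stress log2 P/FM was below 0 for all 10, against 62.5% of all genes, and the median was −0.64 against −0.30. In the same ranges of mean A the all-gene medians under stress were −0.19, −0.46, −0.75 and −1.61. For Tpm1 its value was 0 within rounding, with a P signal of 1679 and an FM signal of 1679. For Tpm3 it was −0.07, with probes at 0.18 and −0.33. With loess and with the processed signals 6 of the 10 were below 0 under stress, Actb, Actg1, Tpm1 and Tpm3 being above it, and after centring 7 were. With the log2 values of the authors and with the brightest probe alone 9 were, Tpm1 being the exception. After the spike-in scaling described below none was.

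As measured, log2 P/FM fell by 0.8 or more, the size the study uses to call an mRNA sensitive, for all 10 genes, against 46.4% of all genes, while 13.8% of all genes and no member rose by as much. The count was 8 with the normexp correction (without Acta2 and Tpm3; 12.5% of all genes), 8 after centring (without Actg1 and Tpm3; 27.9%), 5 with the processed signals (34.5%) and 4 with loess (27.3%). With normexp 18181 genes passed the filter and with the processed signals 12379, so all-gene values under either cover larger sets of genes. The median change was −1.73, from −3.36 for Cnn2 to −1.15 for Tpm3, while the median over all genes was −0.69. The arrays hold no unchanging reference, and the sign of these changes depends on one. In the study P held more RNA than FM in control cells and less under stress, and labelling kept those proportions. The unscaled ratios were made to include this difference in input, which centring each array takes out. The 10 spike-in probes, which read added control RNA and not cellular RNA, had a median change of −2.44, and setting them equal between arrays made log2 P/FM higher under stress for 7 of the genes while Cnn2, Tagln and Tpm2 stayed lower. The median of all genes then became 1.76. This scaling shifts all genes alike, so the place of the 10 genes below the median of all genes was fixed. With loess 7 of the 10 lay below that median, and with the processed signals 8 did. Directions in the text that follows are those of the unscaled arrays, in which 77.0% of all genes past a change of 0.8 in either direction were lower. That share was 52.1% after centring each array, 55.7% after loess, 62.2% with the software's processed signals, 64.2% with the normexp correction and 1.06% after spike-in scaling. Differences between members are not altered by centring or spike-in scaling.

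**Figure D1:**
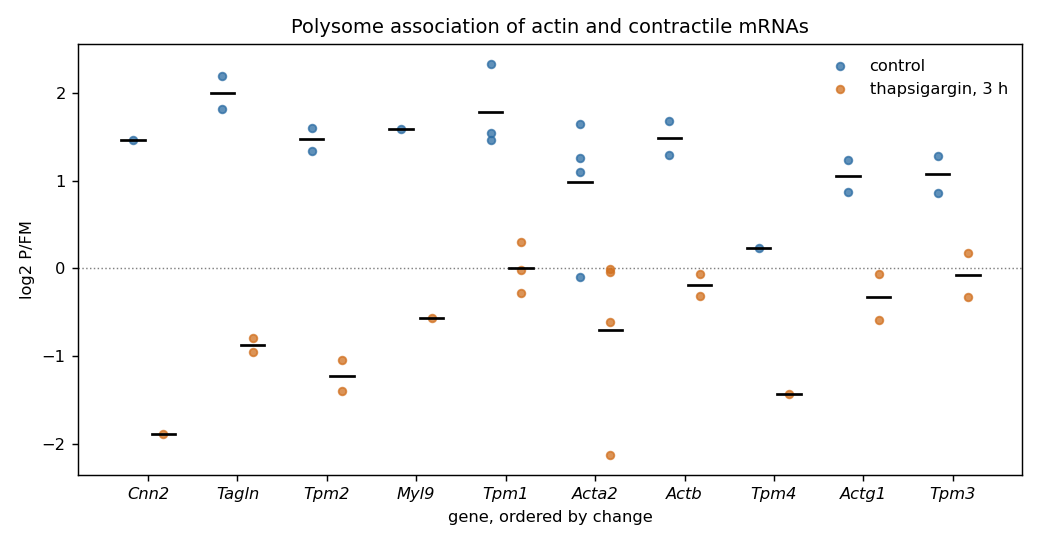
log2 P/FM (vertical axis) of the 10 genes, ordered by their change, in control cells (blue) and after 3 h of thapsigargin (orange). Each point is 1 probe and each bar the mean over the probes of a gene. As measured on the unscaled arrays, the stress mean lies below the control mean for every gene, and the probes of both conditions overlap in Acta2 alone, through its dimmest probe (spike-in scaling turns 7 of the changes upward).

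The actins form the filament itself. Actb, cytoplasmic β-actin, had P and FM signals of 5942 and 2116 in control cells and of 3911 and 4462 under stress. The P signal was thus the larger in control cells and the FM signal under stress. Its log2 P/FM went from 1.49 to −0.19, a change of −1.68 ± 0.11 (SD, 2 probes) and a 3.20-fold lower P/FM. Its NM_007393 probe, at chr5:143665245-143665304 on the minus strand of mm9, was printed 10 times and read −1.75 ± 0.04 over those spots. The other probe named Actb carries the accession BC016624 and a position on chromosome X, chrX:148868817-148868876 (mm9, plus strand), and read −1.60. The spots of the first probe ranged from −1.83 to −1.71, so the gap between the probes was larger than the spread between spots.

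Actg1, cytoplasmic γ-actin, gave a P signal of 17924 and an FM signal of 8624 in control cells, then 12500 and 15653 under stress. The change was −1.38 ± 0.11 (2 probes), from 1.06 to −0.32. It was the second smallest of the 10, but its distance to Tpm3 and to Tpm4 was within the SD typical of probes.

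Acta2, smooth muscle α-actin and a marker of activated fibroblasts, had 5 probes. Its P and FM signals averaged 1272 and 644 in control cells and 729 and 1186 under stress, and log2 P/FM changed by −1.68 ± 0.40 (4 probes), from 0.98 to −0.70. Probes were far apart. The probes of NM_007392 read −1.70, −1.12 and −1.88, the last as a mean with an SD of 0.07 over 7 spots. A dim probe of the cDNA AK077294 read −2.04 and began at −0.09 in control cells, and a probe of AK033744 was not well above background. With the NM_007392 probes alone Acta2 stood at 1.34 in control cells, closer to Actb. The longest-spanning of its probes lies at chr19:34322995-34326249 (mm9, minus strand), where 60 bases read across 3255 bases of genome and so across a splice junction. It is shown as the stretch of spliced mRNA that was read with a change of −1.70.
Acta2: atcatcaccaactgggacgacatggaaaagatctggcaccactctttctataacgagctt

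The 4 tropomyosin genes differed among themselves. Tpm2, β-tropomyosin, had P and FM signals of 1959 and 706 in control cells and 511 and 1196 under stress. Its log2 P/FM went from 1.47 to −1.23, a change of −2.70 ± 0.06 (2 probes). Tpm1, α-tropomyosin, had 4231 and 1227 in control cells and 1679 in both pools under stress, and changed by −1.79 ± 0.60 (3 probes), from 1.79 to 0 within rounding. No other of the genes with several probes spread as widely. The probe of NM_001164248 read −1.83 and the probes of NM_024427 read −1.17 and −2.36, while a probe of NM_001164255 was not well above background. Transcripts of Tpm1 are alternatively spliced, and these probes sit at different places in the gene.

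Tpm3, a cytoplasmic tropomyosin gene, had mean P and FM signals of 1862 and 885 in control cells and 1158 and 1218 under stress. Its probes differed widely in brightness, with P signals of 182 and 18994 in control cells. Its change, −1.15 ± 0.06 (2 probes), was the smallest of the 10. Tpm4 was the member least in polysomes in control cells, with 11354 (P) and 9625 (FM), and under stress it read 5855 and 15769. Its single probe went from 0.24 to −1.43, a change of −1.67. In control cells the next lowest gene, Acta2, lay 0.74 above it, a gap beyond the typical SD between probes. It was within the SD of Acta2's own probes (0.75), and the dim Acta2 probe, at −0.09, lay below Tpm4.

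Tropomyosin mRNAs are alike, and pairs of probes against them can be laid over each other. The first pair is shown because the same stretch of Tpm1 and Tpm2 was read, and the second because Tpm2 and Tpm3 differed most in their response. Capitals mark the bases that are equal when each pair is aligned without gaps. In the first pair 27 of 33 overlapping bases were equal, and the changes read by these probes were −2.36 for Tpm1 and −2.66 for Tpm2. In the second, 32 of 47 were equal, with changes of −2.74 for Tpm2 and −1.10 for Tpm3. For each gene of the second pair the probe shown was the dimmer one. Positions on mm9 are chr9:66880625-66881695 (Tpm1, minus strand), chr4:43532150-43532300 (first Tpm2 probe, minus strand), chr4:43531276-43531335 (second Tpm2 probe, minus strand) and chr3:89893733-89893942 (Tpm3, plus strand).
Tpm1, first pair: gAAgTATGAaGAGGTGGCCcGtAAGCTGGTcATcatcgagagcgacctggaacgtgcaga
Tpm2, first pair: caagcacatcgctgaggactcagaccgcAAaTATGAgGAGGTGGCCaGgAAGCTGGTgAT
Tpm2, second pair: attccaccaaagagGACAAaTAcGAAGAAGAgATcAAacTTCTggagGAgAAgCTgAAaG
Tpm3, second pair: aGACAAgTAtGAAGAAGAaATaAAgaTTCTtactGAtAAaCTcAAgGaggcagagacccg
The longest run of equal bases was 9 in the first pair and 8 in the second. Whether a probe also took up signal from the other transcript was not tested.

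Cnn2 and Tagln bind the side of the filament. Cnn2, calponin 2, which binds actin and is expressed outside muscle, read 5608 (P) and 2034 (FM) in control cells and 1298 and 4830 under stress. Its log2 P/FM went from 1.46 to −1.90, a 10.3-fold lower P/FM, and the change of −3.36 was in the lowest 0.574% of all genes. This gene had 1 probe (NM_007725, chr10:79457785-79457844, mm9, plus strand), so it has no spread of its own. The gap to the next gene, Tagln, was 0.48, beyond the typical SD between probes, although a Tagln probe read −3.15.

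Tagln, transgelin or SM22α, is a calponin-related protein of smooth muscle and activated fibroblasts. It read 3888 (P) and 966 (FM) in control cells and 1199 and 2198 under stress. It was the member most in polysomes in control cells, at 2.01, although its gap to Tpm1 was within the typical SD, and it changed by −2.88 ± 0.38 (2 probes) to −0.88. Its probes, both of NM_011526, read −3.15 and −2.62. Tagln and Tpm2 lay 0.18 apart, less than the typical SD. The probe with the smaller change, at chr9:45738916-45738975 (mm9, minus strand), is shown as it gives the lower estimate for this gene.
Tagln: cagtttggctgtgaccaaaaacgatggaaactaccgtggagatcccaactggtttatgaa

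Myl9, a regulatory light chain of smooth muscle and nonmuscle myosin, was the dimmest member, with 474 (P) and 157 (FM) in control cells and 133 and 197 under stress. Log2 P/FM went from 1.59 to −0.57, a change of −2.16 by 1 probe (NM_172118, chr2:156607301-156607360, mm9, plus strand). It stood apart from Tpm2 by 0.54, beyond the typical SD of 0.36. From Tpm1 it was 0.38 away, within the SD of Tpm1's own probes (0.60), and a Tpm1 probe read lower, at −2.36. Tpm1, Acta2, Actb, Tpm4, Actg1 and Tpm3 then followed in steps that were each within the typical SD.

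In the P channel the signal was lower under stress for all 10 genes, with a median change of −1.14 against 0.04 over all genes. In the FM channel it was higher for all 10, by a median of 0.81, close to the 0.71 of all genes. Against these all-gene medians, which were not matched for signal, the members as a group differed mainly in the P signal. The change in P ran from −0.52 for Actg1 to −2.11 for Cnn2, and 7 genes changed more in P than in FM. In Actb (P −0.60, FM 1.08) and Actg1 the larger part was in FM. The means of Acta2 were nearly equal in size (P −0.80, FM 0.88) and its probes were split. Its brightest probe read P −1.04 and FM 0.84, and another read P −0.14 and FM 0.98.

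**Figure D2:**
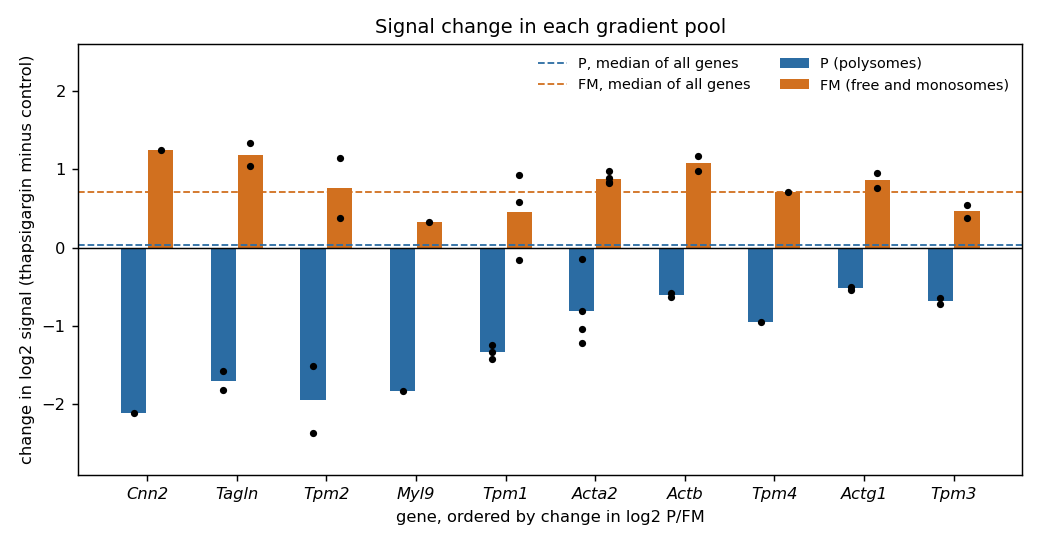
Change in log2 signal, thapsigargin minus control, of each gene in the polysome pool (P, blue) and in the pool of free and monosome fractions (FM, orange). Bars are means over probes, points are single probes and dashed lines are the medians of all genes, 0.04 for P and 0.71 for FM, all from the unscaled arrays.

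The A values moved less. As measured, none of the 10 genes changed by 1 or more in A, where 11.8% of all genes were higher and 0.691% lower by that much. The median change in A was −0.19, from −0.75 for Myl9 to 0.24 for Actb. With the normexp correction Myl9 was lower by more than 1 (−1.27), and with the processed signals Myl9 (−1.13) and Tpm2 (−1.03) were. Over all genes the median was 0.38, and all 10 genes lay below it. None did with the normexp correction, where the median was −1.53 over the 18181 genes that then passed the filter. Myl9 (−0.75), Tpm2 (−0.59 ± 0.57, 2 probes), Tpm1 (−0.44 ± 0.27, 3 probes) and Cnn2 (−0.43) had the lowest values. Those of the actins were 0.24 (Actb), 0.17 (Actg1) and 0.04 (Acta2). From a mean A of 7 upward the change in A was also lower in brighter genes. Over all genes its median was 0.46 for a mean A between 7 and 9 and 0.34 between 9 and 11. It was 0.24 between 11 and 13 and 0.019 between 13 and 18. Among dimmer genes it was 0.16 between 4.5 and 5.5 and 0.46 between 5.5 and 7. Against the median of its own range Actb was level and Actg1 higher, and the other members were lower. No member met the criteria of the study for resistant mRNAs, whose ratio reaches 0.8 in each condition (3.06% of all genes). Nor did any meet those for inducible mRNAs, which start at 0 or less and gain at least 1 under stress (9.9% of all genes).

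Among brighter genes the change moved with the signal, and all 10 genes lay in that part of the array. The median change was −0.39 for a mean A between 4.5 and 5.5 and −0.12 between 5.5 and 7. Genes with a mean A between 7 and 9 had a median change of −0.61. This median was −1.27 between 9 and 11, −1.68 between 11 and 13, and lower still between 13 and 18, where 84.9% of genes fell by 0.8 or more. Against the median of its own range, Actb was at 0.00, Tpm3 at 0.13, Tpm4 at 0.33 and Actg1 at 0.62 above. Cnn2 was lower than its range by −1.68, Tagln by −1.61, Myl9 by −1.55, Tpm2 by −1.43, Tpm1 by −0.51 and Acta2 by −0.41. Cnn2 and Tagln lay below the 5th percentile of their ranges (−3.27 and −2.80), while Tpm2 (−2.70, against −2.80) and Myl9 (−2.16, against −2.29) lay just above theirs.

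**Figure D3:**
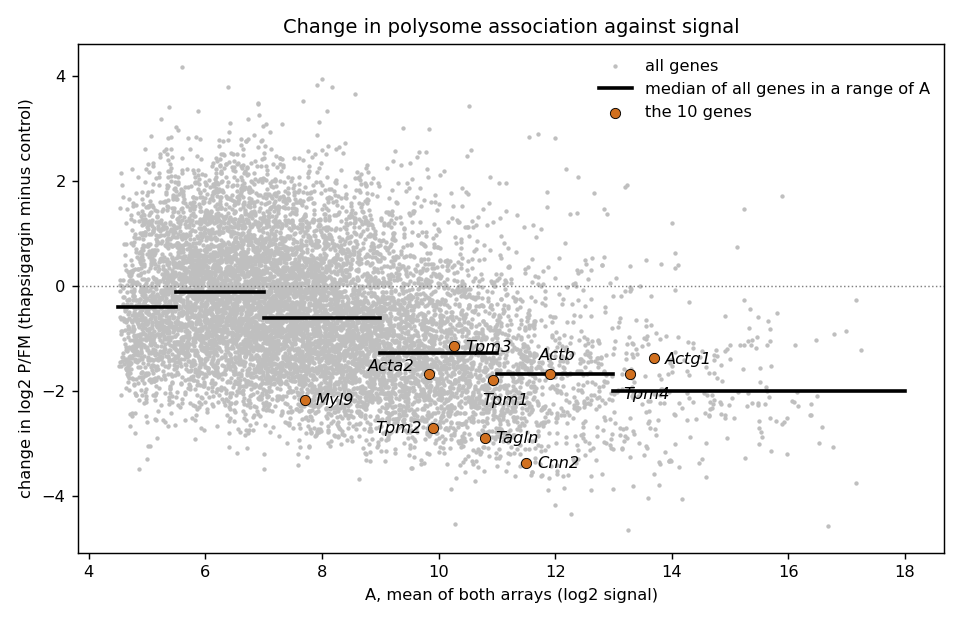
Change in log2 P/FM on the unscaled arrays (vertical axis) against A averaged over both arrays (horizontal axis, log2 signal) for 10276 genes (grey). Black bars are medians of all genes within a range of A, and orange points are the 10 genes, of which Cnn2, Tagln, Tpm2 and Myl9 lie over 1 log2 unit below the bar of their range while Actb lies on it.

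The remaining genes of the actin cytoskeleton, listed by role, did not all move the same way. Of 23 genes of actin turnover, all past the filter, 18 fell by 0.8 or more and 1 rose by that much (46.4% and 13.8% over all genes), with a median change of −1.34. The median A of this list in control cells was 10.5. Over all genes with a mean A between 9 and 11 the median change was −1.27, and 65.3% fell by 0.8 or more. The lowest turnover genes were Cfl1 (−3.29), the filament-severing protein cofilin 1, and Capzb (−2.65), a subunit of the filament cap. The highest were Tmsb4x (2.81), which binds free actin monomers, and Cfl2 (0.69). Of 13 crosslinking and adhesion genes past the filter, 7 fell and 2 rose by 0.8 or more, shares near the 46.4% and 13.8% of all genes, with a median of −0.93. The lowest values were those of Pdlim7 (−2.01) and of Zyx, zyxin (−1.97), and Vcl, vinculin, was among those that rose (1.15 ± 1.33, 2 probes).

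Nonmuscle myosin and its regulators were split. Of 9 genes past the filter, 3 fell and 4 rose by 0.8 or more (46.4% and 13.8% over all genes), with a median change of 0.47. The regulatory light chain Myl12b, a close relative of Myl9, changed by −2.59, and Myl9 by −2.16. Among the heavy chains, Myh14 changed by −1.35 (1 of 2 probes) and Myh10 by 2.48 ± 0.67 (2 probes). Both were dim, with P signals of 35.7 and 45.5 in control cells. Myh9, the heavy chain with the highest signal, named after its value was seen, changed by 1.91 (1 probe). Mylk, the kinase that phosphorylates the regulatory light chain, went from −4.30 to −1.61, the highest change of the list. Only 1 of its 3 probes passed the filter, and its P signal in control cells was low, at 23.4. The medians of A in control cells were 6.70 for this list and 11.04 for the 10 genes, so the lists also differed in signal.

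Muscle-restricted genes were listed beside Acta2 and Tagln. Myh11, Des, Cnn1 and Lmod1 were not well above background. The muscle actins Acta1 (−2.05), Actc1 (−2.10) and Actg2 (−1.61) were detected and fell, as did Smtn, smoothelin (−1.19). Actin coding sequences are nearly identical between the genes, so the signals of the muscle actins are uncertain. The same holds for any probe of Actb, Actg1 or Acta2 that lies in coding sequence. Signal from another actin mRNA was not tested for any of them. The log2 P/FM of Srf changed by −1.43, while its A changed by 0.82. Its cofactor Mkl1 was at 1.04 and 0.98 on the control and stress arrays while its A was higher by 2.32, and Mkl2 and Myocd did not pass the filter.

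**Figure D4:**
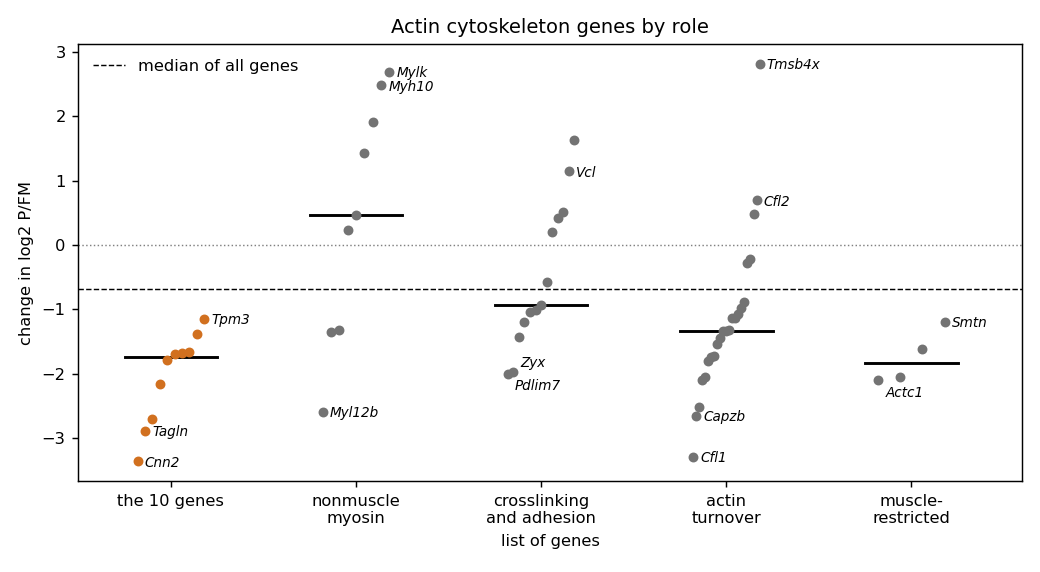
Change in log2 P/FM on the unscaled arrays for the 10 genes (orange) and for 4 lists of other actin cytoskeleton genes (grey), 1 point per gene, with the list's median as a black bar and the median of all genes, −0.69, as a dashed line. The medians are −1.73 for the 10 genes, 0.47 for nonmuscle myosin, −0.93 for crosslinking and adhesion, −1.34 for actin turnover and −1.83 for the muscle-restricted genes.

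Promoter sequence was searched for the CArG box, the element bound by Srf, on both strands. Only exact matches were counted, CC and GG around a fixed run of A and T. A window of 250 bases before the RefSeq transcription start (GRCm38.p6) was held for 8 of the 10 genes and not for Actb and Tagln. An exact match was found for 3 of the 8, while 1.62% of 27025 genes held it in a window. A box with a changed base or outside the window would be missed. The 3 stretches are shown in capitals within 30 bases, since they are the sequence feature the 10 genes were checked for. They lie at chr11:120348566-120348595 (Actg1, minus strand, 90 bases before the start), chr2:156775293-156775322 (Myl9, plus strand, 161 bases before it) and chr10:79988534-79988563 (Cnn2, plus strand, 56 bases before it).
Actg1: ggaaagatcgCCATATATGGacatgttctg
Myl9: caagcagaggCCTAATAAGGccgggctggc
Cnn2: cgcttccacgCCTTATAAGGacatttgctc
Genes with an exact match had changes of −1.38, −2.16 and −3.36, which span nearly the whole range of the 10 genes.

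Genes with the most similar signals were sought by the Euclidean distance over the 4 log2 signals (P and FM on both arrays), among 9093 genes. For Actb the 5 nearest were Spcs1, Ipo13, Uck2, Gabarap and Ino80e, at distances of 0.23 to 0.35 and with changes of −1.94 to −1.41. For Acta2 those named here were Med11, Chmp7, Ctbp1 and Xlr, at 0.15 to 0.23 and with changes of −2.08 to −1.52. The distance uses the signals of different probes, and the change is part of it, so these values are a description only.

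Both the order and the signs of the changes depended on the processing. Cnn2 had the lowest change under each of the 6 ways of processing plotted, of which centring and spike-in scaling cannot change the order. Tagln, Tpm2 and Myl9 were the next lowest in some order, except with the normexp correction, where Myl9 (−1.05) came after Tpm4, Actb and Actg1. At the upper end, Tpm3 was highest except with loess and with the processed signals, where Actg1 was. With loess the change of Actg1 became 0.47 and that of Tpm4 0.079, and the median change of the 10 genes was −0.62 against −0.14 over all genes.

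**Figure D5:**
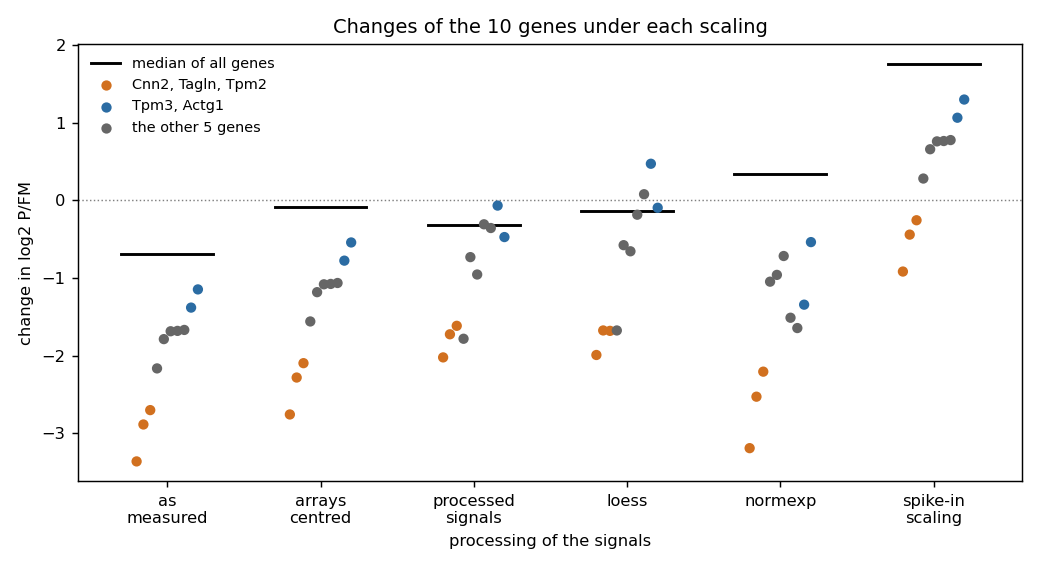
Change in log2 P/FM of the 10 genes (points, in the same order within each column) under 6 ways of processing the signals. Black bars are medians of all genes that passed the filter under each. Cnn2, Tagln and Tpm2 (orange) stay below 0 throughout, while Actg1 rises above it with loess, and 7 of the 10 genes, Tpm3 and Actg1 (blue) among them, do so after spike-in scaling.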

How the data were processed

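NIH3T3 cells were measured in control culture and after 3 h of thapsigargin (10 µM). The labels gave each array its group. In the gradients, P was labelled with Cy3 and FM with Cy5. A total of 300 ng of RNA was used, with P and FM in the proportions found in the gradients. The RNA of 3 preparations was pooled on 1 array per condition. Per the file headers, spot and local background intensities were extracted with Agilent Feature Extraction (10.7.1 in the submitters' notes) and are not normalized. The deposited files also hold processed intensities, background-subtracted and dye-normalized by that software. The authors also made a table of log2 values, Cy3 over Cy5 and not normalized, which served here as an alternative.

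From each spot's mean signal its median local background was taken off, and results under 0.5 were raised to 0.5, the background method named in the study. No normalization was applied, since the study names none. Outlier spots, by the flags of either array, were dropped (295 of 43379, of which 3 were among the 40 spots of the 10 genes). Spots were averaged per probe, probes with A above 4.5 on both arrays were kept, and these were averaged on the log2 scale per gene name. Coding genes were names with an NM accession. Array probe positions are mm9 and promoter windows are from RefSeq on GRCm38.p6, and no coordinate was converted between them. Precision is limited by the number of arrays, 1 per condition, and no test was made. The calculation was tested on simulated data with known changes.

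The 10 genes and the other lists were chosen with earlier results of these data known. All 10 genes were named, of each other list the 2 lowest and 2 highest changes and every muscle-restricted gene, and for Actb and Acta2 the 5 nearest genes, except that some genes this rule picks are not reported here. Alternatives were other background corrections, the processed intensities, the authors' log2 table, loess, centring, spike-in scaling and other rules for probes, spots and A. How spike-in RNA was shared between P and FM is not given in the sources used here. Work used Python 3.11.15, numpy 2.4.6, pandas 2.3.3, R 4.3.3 and limma 3.58.1.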

Additional observations from a re-analysis of the deposited data

How the results depend on the processing

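No paired analysis was possible because each condition had 1 array. With spike-in scaling the median log2 P/FM of the 10 genes under stress became 1.81 and their median change 0.71, 1 gene fell by 0.8 or more, and the change turned positive for Actb (0.76), Actg1 (1.06), Acta2 (0.76), Tpm1 (0.66), Tpm3 (1.30), Tpm4 (0.78) and Myl9 (0.28). Loess brought the medians to 0.65 in control cells, −0.26 under stress and −0.62 for the change (−0.48 relative to all genes), with 4 genes lower by 0.8 or more, and turned Actg1 (0.47) and Tpm4 (0.079). The processed signals gave 0.91, −0.22, −0.84 and −0.53 for the same medians, 5 genes lower by 0.8 or more, and a median change in A of −0.61, that of Actb becoming −0.12. Centring each array moved the stress median to −0.34 and the change to −1.13. With the normexp correction the control median was 0.99, the change relative to all genes −1.76 and the change in A −0.56. Without background subtraction the relative change was −1.49. For these relative changes all 18181 coding names passed the filter, and with the processed signals 12379 did. The cause of these shifts was not tested. The other medians of the 10 genes moved by less than the spread, and the count of genes lower by 0.8 or more was 8 with centring and with normexp. The median change relative to all genes stayed negative in every setting, from −1.76 to −0.48. Genes with 1 probe (Tpm4, Myl9, Cnn2) have no spread of their own, and each condition rests on 1 pooled sample, so differences between cultures were not measured.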
